A study of Mus musculus with 6 samples.

Results

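The genes of 10 proteins that deposit, bind or regulate bone mineral were examined in mouse bone marrow mesenchymal stem cells (BMMSCs), a culture of cells from flushed marrow that attach to plastic. The genes were Spp1, Ibsp, Dmp1, Bglap, Bglap2, Alpl, Phospho1, Enpp1, Phex and Mgp, taken by symbol from an RNA-seq table of 36870 distinct symbols, and each had 1 row. The cells came from femurs and tibias of C57BL/6 mice and were grown in serum-containing medium, and the labels name no osteogenic induction. The 3 Control libraries came from cells that the sample labels describe as given non-targeting siRNA and the RNA-sequencing methods as given vehicle, and the 3 siTet1/Tet2 libraries from cells given siRNAs against both Tet1 and Tet2, which encode enzymes that oxidise 5-methylcytosine in DNA. The labels give the cells as passage 2, and the methods as passage 1. Neither source says whether the 3 samples of a group were separate cultures or animals, so the p-values measure only the spread between these samples, which may be technical.

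Bone mineral forms when phosphate is freed beside collagen and pyrophosphate, which blocks crystal growth, is removed. Tissue-nonspecific alkaline phosphatase (Alpl) breaks down pyrophosphate, Phospho1 frees phosphate inside matrix vesicles, and Enpp1 makes pyrophosphate. Osteopontin (Spp1), bone sialoprotein (Ibsp) and Dmp1 are acidic phosphoproteins of the SIBLING family that bind calcium, osteocalcin (Bglap, Bglap2) and matrix Gla protein (Mgp) carry vitamin K-dependent Gla residues, and Phex is a membrane peptidase of osteocytes and osteoblasts that acts in phosphate balance.

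Values were given as RPKM, a read density per unit of gene length that is also scaled to the depth of each library. They were compared as log2(RPKM + 1) with limma (SE, standard error) in the 13266 genes that averaged 0.1 RPKM or more, and a gene was called at a Benjamini-Hochberg adjusted p under 0.05. The minimum was taken over the libraries of both groups, so a gene could pass it through the high values of a single group. On this scale the change of a gene with low RPKM is understated. By an estimate from the low values, the libraries held 32400000 to 38600000 reads, but only 40.6% to 53.7% of those values lay within 0.1 of a whole read. Reads given for single genes rest on that estimate. The 10 most abundant rows held 10.6% to 11.8% of the summed RPKM in the Control libraries and 17.8% to 20.1% in the siTet1/Tet2 libraries. Tet2 was at 2.57, 4.08 and 3.71 RPKM in the Controls and at 0.358, 0.238 and 0.202 RPKM in the siTet1/Tet2 libraries. Tet1 was at 0.032, 0.098 and 0.05 RPKM in the Controls and at 0.001, 0.01 and 0.001 RPKM in the siTet1/Tet2 libraries. These values did not overlap, but Tet1 was below the minimum level and was not tested. Tet3, which was not targeted, was not called (adjusted p = 0.508 from limma).

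The labelled cell type was compared with marker lists. Of 16 stromal markers, 14 could be tested, of which 13 were lower and 1, Vcam1, was higher in the siTet1/Tet2 libraries, and the summed level went from 1012 to 1378 RPKM in the Control libraries to 219.6 to 362.7 RPKM. Over all genes tested, 29.8% were called lower and 14.7% higher. Thy1 stayed at or below 0.146 RPKM in every library, and Lum stood at the lowest listed value in 4 of 6 libraries. Markers of macrophages were abundant in all libraries of this stromal culture. Their summed level was 9097 to 12180 RPKM in the Control libraries and 17540 to 20660 RPKM in the siTet1/Tet2 libraries, with 7 of 16 genes higher and 3 lower. Lyz2 carried most of that rise, and without it the sums were 5549 to 7168 RPKM and 7698 to 8143 RPKM. In such bulk samples, fewer cells of a type and less RNA per cell cannot be told apart. The part of either shift in the values of the mineralization genes was not tested.

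The 10 genes spanned more than 5 orders of magnitude per length. Spp1 was by far the most abundant and ranked 12 among all rows in each Control library and 13 in each siTet1/Tet2 library. It made up 88.1% to 91.2% of the summed RPKM of the 10 genes in the Control libraries and 93.3% to 97.1% in the siTet1/Tet2 libraries. Mgp followed, then Enpp1, Phospho1 and Alpl, while Bglap, Dmp1 and Phex were below 1 RPKM in every library. In the Controls the order of the mean levels was Spp1, Mgp, Enpp1, Phospho1, Alpl, Bglap2, Ibsp, Bglap, Dmp1 and Phex, and of these neighbours Phospho1 and Alpl overlapped, as did Dmp1 and Phex. In the siTet1/Tet2 libraries Ibsp and Dmp1 stood above Alpl and Bglap2, and the values of Dmp1, Alpl and Bglap2 overlapped.

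**Figure D1:**
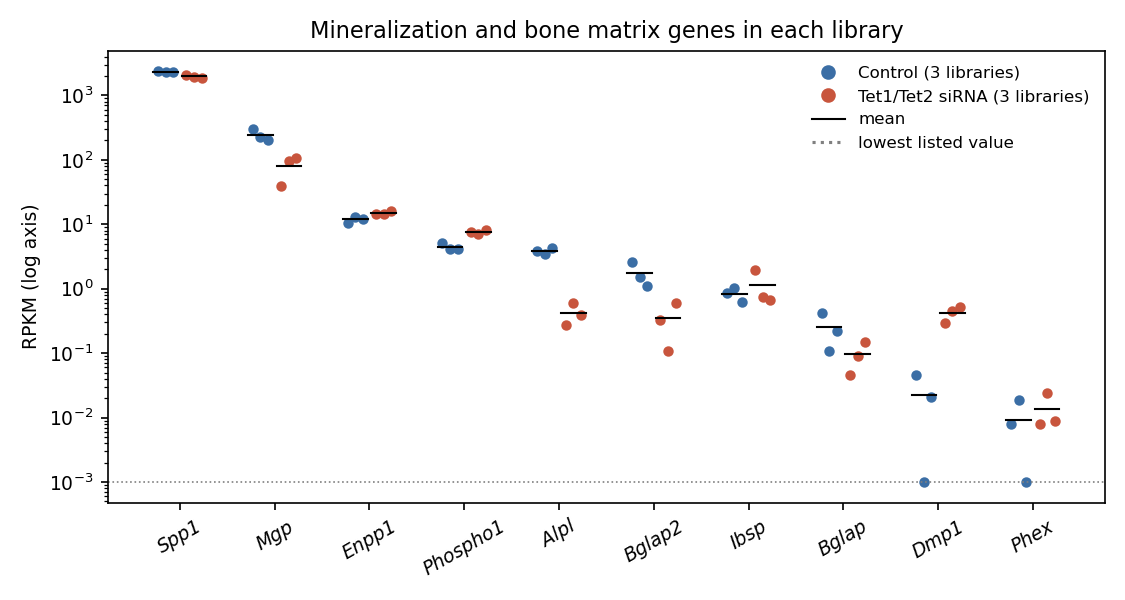
RPKM of the 10 genes on a log axis, with a point for each library (blue, Control; red, siTet1/Tet2), a line at the mean of each group and a dotted line at the lowest listed value. The Alpl and Mgp points of the siTet1/Tet2 libraries all lie below the Control points, those of Phospho1 and Dmp1 all lie above, and those of Ibsp, Bglap and Phex overlap.

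Of the 10 genes, 9 passed the minimum level and 3 were called lower (Alpl, Bglap2 and Mgp), where 29.8% of all genes tested were called lower. Another 3 were called higher (Dmp1, Phospho1 and Enpp1), where 14.7% of all genes were. Of these, Dmp1 passed the minimum level only through its siTet1/Tet2 values. Spp1, Ibsp and Bglap were not called, and Phex was below the minimum. Under a stricter rule, a fold change above 2 on the log2(RPKM + 1) scale with an unadjusted p below 0.05, Alpl, Bglap2 and Mgp were again lower (background 5.63%) and 0 of these genes were higher (background 0.95%). With a pseudocount of 0.1 RPKM in its place, the same rule gave these 3 genes as lower (background 10.8%) and 1, Dmp1, as higher (background 2.19%). The groups did not overlap in 7 of the 9 genes, against 55.7% of all genes. The median log2 fold change of the 9 genes was -0.18, beside -0.09 over all genes tested. By the adjusted p, the count of lower genes was thus close to the share of all genes that were lower. The count of lower genes under the fold rule stood above its share. The count of higher genes by the adjusted p is not read as an excess. It included Dmp1, which passed the minimum only through its high group, and Enpp1, whose call depended on single libraries and on the scaling. When libraries were rescaled to equal sums, 2 genes were called higher. These counts rest on 9 genes and were not tested as a set. With calls in both directions, the genes did not move as a group.

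**Figure D2:**
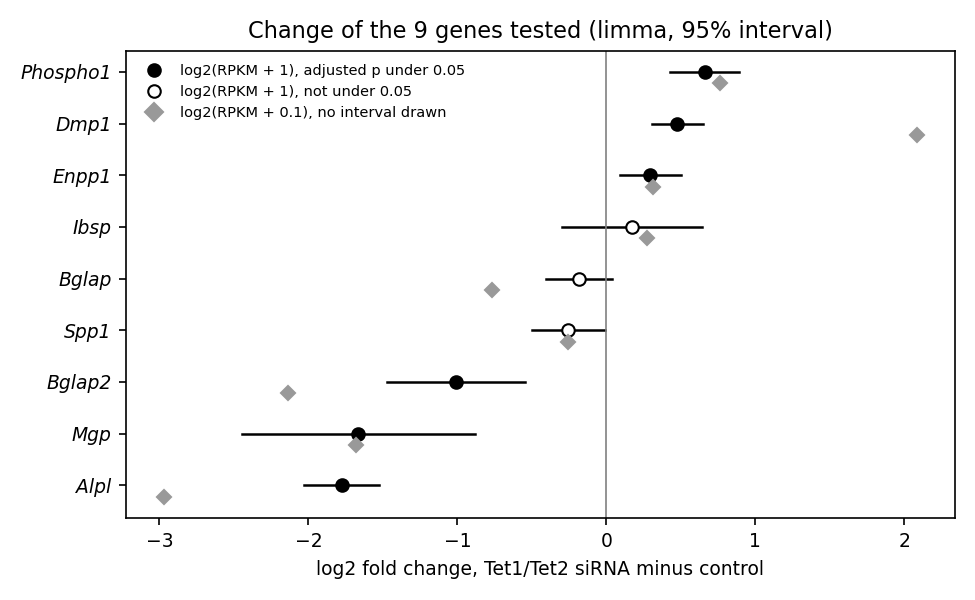
Log2 fold change (siTet1/Tet2 minus Control) of the 9 genes tested, as circles with the 95% interval from limma on log2(RPKM + 1), filled where the adjusted p was under 0.05. Grey diamonds give the change on log2(RPKM + 0.1) without an interval; with this smaller pseudocount Dmp1 moves to 2.09, while Enpp1, Spp1 and Mgp hardly move.

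Among the enzymes of phosphate and pyrophosphate, Alpl and Phospho1 went in opposite directions. Alpl, on chromosome 4 of GRCm38 (chr4:137741733-137796384, minus strand), was at 3.81, 3.48 and 4.30 RPKM in the Controls and at 0.274, 0.603 and 0.386 RPKM in the siTet1/Tet2 libraries. Every siTet1/Tet2 library lay well below every Control library. The group means were 3.86 ± 0.411 and 0.421 ± 0.167 RPKM (SD, n = 3 each), a 9.18-fold lower level, with a log2 fold change of -1.78 (SE 0.11, limma adjusted p = 1.26e-05). About 291 to 360 reads stood behind the Control values and 27 to 59 behind the others. Phospho1, the phosphatase of matrix vesicles (chr11:95824499-95832140, plus strand), was at 5.12, 4.13 and 4.13 RPKM in the Controls and at 7.57, 7.12 and 8.15 RPKM in the siTet1/Tet2 libraries. The groups did not overlap. Phospho1 rose from 4.46 ± 0.566 to 7.61 ± 0.516 RPKM (SD, n = 3 each), 1.71-fold, with a log2 fold change of 0.66 (SE 0.10, limma adjusted p = 0.00107).

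Enpp1, which makes pyrophosphate and so opposes Alpl (chr10:24637914-24712159, minus strand), was at 10.5, 12.9 and 12.2 RPKM in the Controls and at 14.2, 14.3 and 15.8 RPKM in the siTet1/Tet2 libraries. The siTet1/Tet2 values were all higher, by a small margin over the highest Control value. The rise was 1.24-fold, from 11.9 ± 1.23 to 14.8 ± 0.894 RPKM (SD, n = 3 each), with a log2 fold change of 0.30 (95% interval 0.09 to 0.50, adjusted p = 0.0282 from limma). This call depended on single libraries and on the scaling. The adjusted p from limma was 0.0742 without Control replicate 1, 0.0574 without siTet1/Tet2 replicate 1, 0.0639 without siTet1/Tet2 replicate 2, 0.0843 without siTet1/Tet2 replicate 3 and 0.109 when libraries were rescaled to equal sums.

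The balance of the pyrophosphate pair was followed within each library, as the ratio of Alpl to Enpp1, with 0.01 RPKM added to both genes. It was 0.363, 0.270 and 0.352 in the Control libraries and 0.0199, 0.0429 and 0.0250 in the siTet1/Tet2 libraries. The log2 ratio fell by 3.55, from -1.62 ± 0.235 to -5.17 ± 0.567 (SD, n = 3 each), and no test is given, since the groups of either gene alone did not overlap and so fixed the order of the ratios.

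The promoters of Alpl and Phospho1 were set side by side with that of Dmp1, since these 3 genes moved in different directions and CG dinucleotides are the main sites of the cytosine methylation that Tet enzymes act on. The 250 bases before the RefSeq start are given 5′ to 3′ on the gene's strand (GRCm38.p6), with each CG in capitals. Alpl is shown at its upstream start (chr4:137796385-137796634, minus strand), Phospho1 at chr11:95824250-95824499 (plus strand) and Dmp1 at its second start (chr5:104202367-104202616, plus strand).
Alpl: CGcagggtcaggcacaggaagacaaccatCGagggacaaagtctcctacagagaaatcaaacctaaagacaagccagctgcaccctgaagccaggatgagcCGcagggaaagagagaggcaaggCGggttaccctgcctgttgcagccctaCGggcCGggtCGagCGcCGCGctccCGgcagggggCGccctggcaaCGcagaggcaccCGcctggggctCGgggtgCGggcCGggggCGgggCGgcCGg
Phospho1: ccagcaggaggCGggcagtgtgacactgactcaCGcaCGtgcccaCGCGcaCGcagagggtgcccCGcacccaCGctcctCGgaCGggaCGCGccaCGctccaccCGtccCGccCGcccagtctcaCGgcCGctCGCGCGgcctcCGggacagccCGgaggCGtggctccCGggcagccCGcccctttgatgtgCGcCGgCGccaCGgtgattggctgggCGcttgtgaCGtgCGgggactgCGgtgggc
Dmp1: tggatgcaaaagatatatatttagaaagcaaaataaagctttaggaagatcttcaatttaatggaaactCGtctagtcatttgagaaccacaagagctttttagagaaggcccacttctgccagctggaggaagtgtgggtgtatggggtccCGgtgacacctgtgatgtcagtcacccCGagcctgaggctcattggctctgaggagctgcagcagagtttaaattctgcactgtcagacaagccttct
Phospho1 held 34 CG in this window and Alpl 20, whereas Dmp1 held 3. The median of 32851 RefSeq promoters was 6, with quartiles of 2 and 16. Enpp1 held 17, and the remaining promoters of these genes held 2 to 5. Among them were a second start of Alpl with 4 and the first start of Dmp1 with 5. RPKM of whole genes do not show which start was used. Of the 10 genes, 8 had an entry (11 promoters in all), and Bglap2 and Mgp had none. The core motif of Runx factors, TGTGGT or ACCACA on the other strand, was in 4 of the 11 promoters (those of Bglap, Enpp1, the second start of Dmp1 and the first of Spp1) and in 14.0% of all promoters. DNA methylation was not measured in these libraries.

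The 3 SIBLING genes lie together on chromosome 5 of GRCm38 with Dspp and Mepe, within 270.3 kb, in the order Dspp, Dmp1 (104202613 to 104214102), Ibsp (104299171 to 104311469), Mepe and Spp1 (104435118 to 104441050), and they behaved differently from each other. Dspp, the dentin sialophosphoprotein gene, and Mepe, a phosphoglycoprotein gene of osteocytes, stood at the lowest listed value of 0.001 RPKM in all 6 libraries. Dmp1, between them in this cluster, was at 0.046, 0.001 and 0.021 RPKM in the Controls and at 0.297, 0.449 and 0.527 RPKM in the siTet1/Tet2 libraries. All siTet1/Tet2 values exceeded all Control values. Behind them stood about 5, 0 and 2 reads in the Control libraries and 32, 48 and 52 reads in the siTet1/Tet2 libraries. The mean rose from 0.0227 ± 0.0226 to 0.424 ± 0.117 RPKM (SD, n = 3 each), with a log2 fold change of 0.47 (SE 0.07, limma adjusted p = 0.00122). Only the siTet1/Tet2 mean reached the minimum of 0.1 RPKM. Dmp1 was therefore tested only because of its high group, which limits what this p-value shows. The ratio of the means was 18.7, and the fitted change was 2.09 with a pseudocount of 0.1 and 3.98 with 0.01, so its size, unlike its direction, depended on the pseudocount.

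Ibsp, bone sialoprotein, was at 0.858, 1.01 and 0.630 RPKM in the Controls and at 1.96, 0.752 and 0.677 RPKM in the siTet1/Tet2 libraries. A single siTet1/Tet2 library, replicate 1, was high and the groups overlapped. The log2 fold change was 0.17 (95% interval -0.30 to 0.64, adjusted p = 0.527 from limma), and it was -0.09 without that library (adjusted p = 0.546 from limma). Ibsp thus gave no direction.

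Spp1, osteopontin, which is also made by macrophages, was at 2364, 2346 and 2328 RPKM in the Controls and at 2103, 1933 and 1866 RPKM in the siTet1/Tet2 libraries. The Control values were nearly equal and all above the siTet1/Tet2 values. The mean went from 2346 ± 18.0 to 1967 ± 122 RPKM (SD, n = 3 each), a difference of -16.1%, with a log2 fold change of -0.26 (95% interval -0.50 to -0.01, adjusted p = 0.0857 from limma), so it was not called. It passed with the replicate number as a block (adjusted p = 0.0394 from limma), after quantile normalization (change of -0.12, adjusted p = 0.0464), when libraries were rescaled to equal sums (-0.32, adjusted p = 0.00522) and without Control replicate 3 (adjusted p = 0.0331). It also passed under a stricter filter of 1 RPKM on the mean (adjusted p = 0.0489 from limma) and in eBayes without trend (adjusted p = 0.0200). Over all alternatives its adjusted p from limma ranged from 0.00522 to 0.341, always with a lower level in the siTet1/Tet2 libraries.

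The opposite movement of Dmp1 and Alpl, which was known when the pair was chosen and is given without a test, was visible in each library. With the same addition, the ratio of Dmp1 to Alpl was 0.0146, 0.00315 and 0.00720 in the Control libraries and 1.08, 0.749 and 1.36 in the siTet1/Tet2 libraries. The 2 transcripts, far apart in the Control libraries, were therefore at about the same RPKM after siRNA treatment. The log2 ratio differed by 7.22 between the groups with this addition, by 5.06 with 0.1 RPKM added and by 2.25 with 1 RPKM added, so its size depended on the pseudocount.

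**Figure D3:**
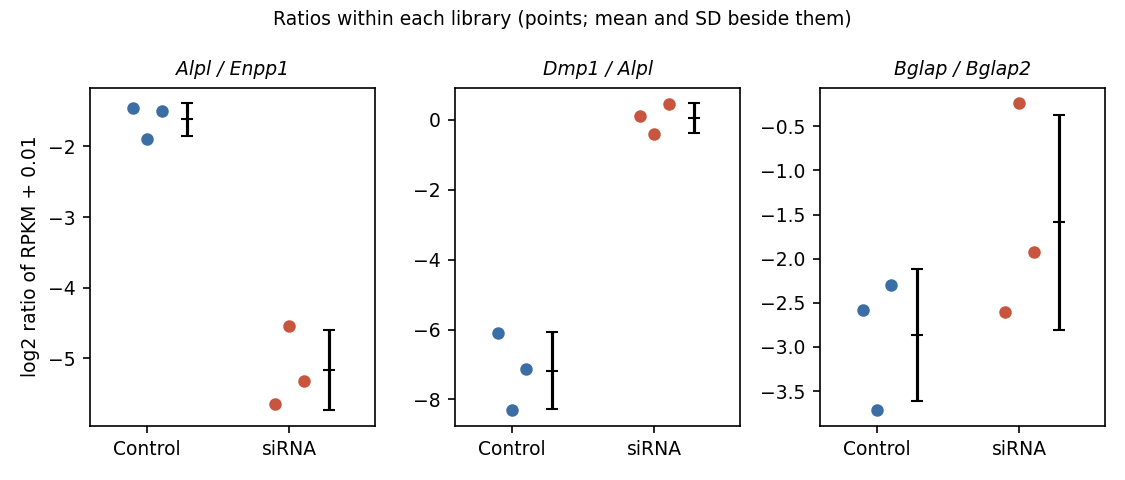
Log2 ratio of 2 genes within each library, computed on RPKM + 0.01, for Alpl to Enpp1, Dmp1 to Alpl and Bglap to Bglap2; each point is a library and the bar beside it gives the mean and SD of the 3 libraries. The Alpl to Enpp1 ratio is lower and the Dmp1 to Alpl ratio is higher in every siTet1/Tet2 library, while the groups overlap for Bglap to Bglap2.

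Osteocalcin is encoded in the mouse by neighbouring paralogs on chromosome 3 of GRCm38, which lie on the minus strand as Bglap (88383501 to 88384464), Bglap2 (88377736 to 88378699) and Bglap3 (88368616 to 88372743). Bglap and Bglap2 are both counted as bone osteocalcin genes, and Bglap3 is the osteocalcin-related gene of other tissues. How reads that match several of them were assigned is not given in the sources used here, so their coding sequences were compared (GENCODE M21, 288 bases in 4 exons each, 5′ to 3′). They are shown because the split of reads between the rows hangs on the few positions that differ, which are in capitals.
Bglap: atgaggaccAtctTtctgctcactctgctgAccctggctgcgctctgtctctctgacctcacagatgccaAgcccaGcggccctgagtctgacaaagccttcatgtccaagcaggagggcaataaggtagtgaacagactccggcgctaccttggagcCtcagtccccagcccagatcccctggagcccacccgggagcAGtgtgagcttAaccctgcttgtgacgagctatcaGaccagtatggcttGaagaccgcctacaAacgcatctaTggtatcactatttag
Bglap2: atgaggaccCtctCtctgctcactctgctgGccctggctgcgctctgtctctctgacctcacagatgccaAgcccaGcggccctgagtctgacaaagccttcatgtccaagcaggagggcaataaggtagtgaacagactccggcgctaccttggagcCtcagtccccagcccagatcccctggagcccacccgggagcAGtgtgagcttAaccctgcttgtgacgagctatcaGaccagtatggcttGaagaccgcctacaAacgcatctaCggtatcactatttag
Bglap3: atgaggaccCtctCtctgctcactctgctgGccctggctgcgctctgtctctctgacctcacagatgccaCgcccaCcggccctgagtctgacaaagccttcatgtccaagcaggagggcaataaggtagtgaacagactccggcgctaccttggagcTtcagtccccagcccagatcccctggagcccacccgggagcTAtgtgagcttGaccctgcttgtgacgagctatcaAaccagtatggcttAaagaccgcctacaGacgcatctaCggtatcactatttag
Bglap and Bglap2 were identical at 284 of 288 coding bases (98.6%), with the substitutions A10C, T14C, A31G and T273C, counted from the A of the start codon with the Bglap base first. Bglap3 differed from Bglap at 13 positions and from Bglap2 at 9. Of the 341 windows of 100 bases in the Bglap transcript, the length of 1 read, 192 (56.3%) were also present in Bglap2, which is 51.6% of the windows of Bglap2. No window of Bglap occurred in Bglap3 (0 of 341), and 20 of 372 windows of Bglap2 did. Reads from those windows could belong to both, and the separate rows of Bglap and Bglap2 are uncertain.

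Bglap2 was at 2.60, 1.53 and 1.11 RPKM in the Controls and at 0.330, 0.110 and 0.598 RPKM in the siTet1/Tet2 libraries, or about 46, 24 and 17 reads and 6, 2 and 10 reads. The groups did not overlap, and the mean fell 5.05-fold, from 1.75 ± 0.768 to 0.346 ± 0.244 RPKM (SD, n = 3 each), with a log2 fold change of -1.01 (SE 0.20, limma adjusted p = 0.0042). Bglap was at 0.427, 0.107 and 0.218 RPKM in the Controls and at 0.046, 0.092 and 0.150 RPKM in the siTet1/Tet2 libraries. These values overlapped and rested on about 1 to 7 reads, and its log2 fold change of -0.18 did not pass (95% interval -0.40 to 0.04, adjusted p = 0.156 from limma), which shows no difference at this depth rather than an equal level. The sum of the rows, in which most of the split between them cancels but not a loss or double count of shared reads, was 3.03, 1.64 and 1.33 RPKM in the Control libraries and 0.376, 0.202 and 0.748 RPKM in the siTet1/Tet2 libraries. The groups did not overlap, and the log2 fold change of the sum was -1.03 (SE 0.21, limma adjusted p = 0.00477), close to that of Bglap2 alone. The ratio of Bglap to Bglap2, with 0.01 RPKM added to both, was 0.167, 0.0760 and 0.203 in the Control libraries and 0.165, 0.850 and 0.263 in the siTet1/Tet2 libraries, and the groups overlapped (two-sided exact permutation p = 0.3). With 3 against 3 libraries that p cannot fall below 0.1, and few reads stood behind the ratios. The test therefore cannot show whether the split between the rows changed. Bglap3 was at 0.379, 0.039 and 0.199 RPKM in the Controls and at 0.025, 0.001 and 0.001 RPKM in the siTet1/Tet2 libraries and was not called (adjusted p = 0.0724 from limma). It passed with the replicate block (adjusted p = 0.042), without Control replicate 2 (0.0143) and with pseudocounts of 0.1 (0.0388) and 0.01 (0.0226). Only its Control mean reached the minimum of 0.1 RPKM. Bglap3 was therefore tested only because of its high group, which limits what these p-values show.

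Mgp, the Gla protein that keeps soft tissue and cartilage from calcifying, was the second most abundant of the 10 genes. Its gene lies at chr6:136872435-136875823 on the minus strand. It was at 296, 224 and 201 RPKM in the Controls and at 39.2, 95.03 and 109 RPKM in the siTet1/Tet2 libraries. All siTet1/Tet2 values were below the Control values, and replicate 1 was the lowest of them. Mgp fell 2.97-fold, from 240.2 ± 49.3 to 80.9 ± 36.8 RPKM (SD, n = 3 each), with a log2 fold change of -1.67 (SE 0.34, limma adjusted p = 0.00483), and by 1.21 on the log2 scale without siTet1/Tet2 replicate 1. A gene whose protein promotes mineral (Alpl) and a gene whose protein restrains it (Mgp) were thus both lower. Phex (chrX:157162075-157415312, minus strand) was at 0.008, 0.019 and 0.001 RPKM in the Controls and at 0.008, 0.024 and 0.009 RPKM in the siTet1/Tet2 libraries, at most about 6 reads, so a difference was not detectable at this depth.

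Since stromal markers as a whole were lower in the siTet1/Tet2 libraries, the genes were also placed relative to them, as log2(RPKM + 0.01) after subtracting from each library the median of its stromal markers. On this scale the median change of all genes tested was 1.85, and 88.6% of all genes were called higher and 1.54% lower, so a value near 1.85 marks a gene that moved as most genes did and a value near 0 a gene that moved as the stromal markers did. Alpl was the 1 gene of the 9 called lower, with a change of -1.27 (95% interval -1.97 to -0.56, adjusted p = 0.000525 from limma). It fell further than the stromal median but not beyond the stromal markers themselves. Of the 14 stromal markers tested, 4 were also called lower on this scale and 2 higher. Among the lower ones, Pdgfra (-1.41) and Cxcl12 (-1.32) stood slightly below Alpl. Mgp, at 0.29 (95% interval -0.53 to 1.10, adjusted p = 0.512 from limma), and Bglap2, at -0.54 (95% interval -1.32 to 0.25, adjusted p = 0.192), could not be told from the stromal median. Bglap2 depended on single libraries, with -0.97 without Control replicate 3 (adjusted p = 0.0396 from limma), -0.89 without siTet1/Tet2 replicate 1 (adjusted p = 0.0194), -0.82 without siTet1/Tet2 replicate 3 (adjusted p = 0.0476) and 0.10 without siTet1/Tet2 replicate 2 (adjusted p = 0.847). Dmp1 (5.95), Phospho1 (2.74), Enpp1 (2.28), Ibsp (2.25) and Spp1 (1.71) were called higher on this scale, as most genes were, and Bglap (0.74, adjusted p = 0.229 from limma) was not called, though it passed with a pseudocount of 0.1 (1.19, adjusted p = 0.00578). The median of the 9 genes was 1.71.

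Further genes of mineral formation were described from lists of their roles. In the list for phosphate and pyrophosphate, 6 of 15 tested genes were lower and 4 higher (median change -0.19), beside 29.8% lower and 14.7% higher of all genes. Enpp2, which makes lysophosphatidic acid and is a relative of Enpp1, fell from 3.87 to 0.702 RPKM (log2 fold change -1.52), and Smpd3, the neutral sphingomyelinase needed for normal bone mineral, fell from 11.6 to 1.03 RPKM (-2.65). The phosphate transporter Slc20a2 fell from 13.02 to 7.62 RPKM, and the sodium-calcium exchanger Slc8a1 rose from 4.97 to 9.47 RPKM. Ank, the gene of the protein through which pyrophosphate reaches the outside of the cell, rose from 19.9 ± 1.43 to 27.4 ± 0.534 RPKM (adjusted p = 0.00111 from limma), in the same direction as Enpp1. It was named after its values were seen.

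Of the genes that modify or process such matrix proteins, 9 of 16 were lower and 1 was higher (median -0.28). The shares of all genes were 29.8% lower and 14.7% higher. Fam20a, the partner of the secretory kinase Fam20c, fell from 18.2 to 2.35 RPKM, and Bmp1, which cleaves procollagen and Dmp1, from 42.8 to 9.02 RPKM. The matrix metalloproteinases Mmp3 and Mmp14 fell from 3.70 to 0.524 RPKM and from 66.2 to 41.3 RPKM. The higher gene was Fam20c, the kinase that phosphorylates SIBLING proteins, which rose from 87.5 ± 1.38 to 114.8 ± 0.558 RPKM (SD, n = 3 each, adjusted p = 0.000524 from limma).

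Other mineral-binding and matrix genes were lower nearly throughout, in 12 of 13 tested genes against 0 higher in limma (median change -1.96). Omd, among the 12, and Bglap3, which was not called, passed the minimum level only through their Control values. For this and the next 2 lists, the shares of all genes called were 29.8% lower and 14.7% higher. Of the 20 listed genes, 4 (Mepe, Sost, Dspp and Vtn) stood at the lowest listed value in all 6 libraries. Ogn, osteoglycin, fell from 19.4 to 0.567 RPKM, Postn, periostin, from 36.5 to 3.60 RPKM, Thbs2, thrombospondin 2, from 44.9 to 4.81 RPKM and Dcn, decorin, from 3.48 to 0.913 RPKM. Among regulators of osteoblasts, 11 of 15 were lower and 0 were higher in limma (median -0.63). Relative to the stromal markers, 3 of the 15 were called lower and 5 higher (median 0.33), beside 1.54% and 88.6% of all genes. The matrix list had 3 of 13 lower and 1 higher on that scale (median -0.60). Vdr, the vitamin D receptor, fell from 5.44 to 0.573 RPKM, and the transcription factors Msx2, Runx2 and Dlx5 fell from 1.2 to 0.290, from 1.70 to 0.136 and from 1.96 to 0.356 RPKM. Of receptors for matrix proteins, 4 of 9 were lower and 2 were higher (median -0.05), not far from the 29.8% and 14.7% of all genes. The integrin subunit Itgb5 rose from 135.6 to 227.4 RPKM, while Itga5 fell from 128.6 to 72.1 RPKM, Itgb1 from 383.3 to 273.3 RPKM and Bmpr1a, a BMP receptor, from 6.60 to 2.29 RPKM.

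**Figure D4:**
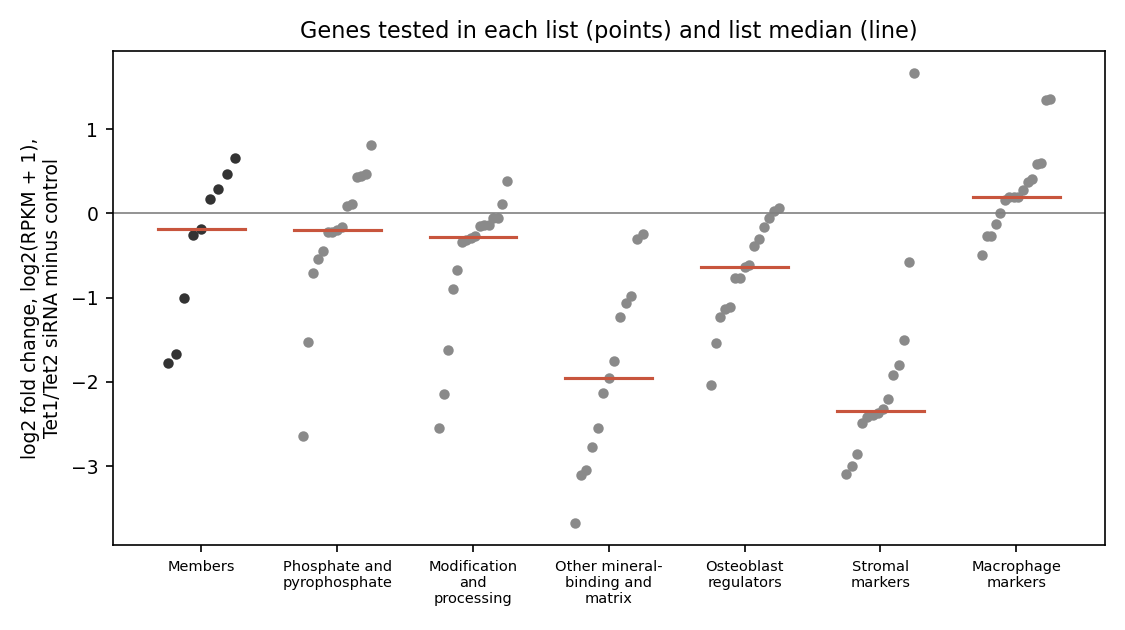
Log2 fold change on log2(RPKM + 1) of each gene tested in the 10 mineralization genes (black) and in 6 lists (grey), with a red line at the median of each list. The mineralization genes are spread on both sides of 0 with a median of -0.18, while other mineral-binding and matrix genes have a median of -1.96, near that of the stromal markers at -2.34.

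Markers of other cell types of bone were set beside these genes. Of osteoclast markers, 3 of 5 tested were higher and 0 lower in limma, beside 14.7% and 29.8% of all genes. At an unadjusted p under 0.05 the counts were 3 and 1, for which no share of all genes was computed. The summed level of these markers was 68.4 to 75.4 RPKM in the Control libraries and 155.9 to 174.1 RPKM in the siTet1/Tet2 libraries. Atp6v0d2 made up most of these sums, and without it they were 12.9 to 16.5 RPKM and 22.8 to 27.1 RPKM. Ocstamp and Mmp9 were not called, with means of 0.178 and 0.535 RPKM in the Controls and 0.0597 and 0.374 RPKM after siRNA treatment. Oscar (0.13 and 0.01 RPKM), Dcstamp (0.0277 and 0.167 RPKM) and Calcr (0.00333 and 0.003 RPKM) were below the minimum. The groups did not overlap for Oscar and for Dcstamp, in opposite directions. Among 8 markers of osteocytes, the cell type with which Dmp1 and Phex are most associated, 4 could be tested. Of these, Tnfrsf11b was lower and Cd44 higher, beside 29.8% lower and 14.7% higher of all genes, so these counts show nothing particular to the list. Sost and Mepe were at the lowest listed value in all 6 libraries. Pdpn (means of 4.69 RPKM in the Controls and 4.01 RPKM after siRNA treatment) and Capg (453.5 and 509.6 RPKM) were present and not called. Sost and Mepe were not detected beside the higher Dmp1 values, and the cell source of those values was not tested. Chondrocyte markers were lower in 2 of 5 tested genes (Col2a1 and Col10a1), beside 29.8% of all genes, with Hapln1 at the lowest listed value throughout. Endothelial and smooth muscle markers were lower in 6 of 8 genes and higher in 1, beside 29.8% and 14.7% of all genes. Acta2 went from 787.7 to 156.5 RPKM. The part of these markers in the values of the 10 genes was not tested.

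The genes whose pattern over the 6 libraries was most like that of Alpl, by the root mean square difference of centred log2(RPKM + 0.1), were Pydc3 (0.152), the chemokine gene Ccl2 (0.153) and the MHC class I gene H2-Q4 (0.167). Ccl2 went from a mean of 282 RPKM in the Control libraries to 33.3 RPKM in the siTet1/Tet2 libraries. Pydc3 went from 0.813 to 0.0177 RPKM, which is near the lowest listed value. The genes most like Dmp1 were Bmf (0.241), which encodes a pro-apoptotic protein, Cidec (0.243), which encodes a lipid droplet protein, and Spic (0.260), a transcription factor gene of red pulp macrophages. Spic went from 2.67 to 11.5 RPKM. None of these 6 genes is on the lists of skeletal or stromal genes used here. Those lists hold few of the 13266 genes searched, so their absence from them carries no weight.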

How the data were processed

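RNA-seq libraries of total RNA (NEBNext Ultra, paired-end reads of 100 bases, Illumina HiSeq) were made by the authors, who trimmed adaptors, mapped the reads to GRCm38 with DNASTAR Lasergene and deposited RPKM on a linear scale, a unit the methods call FPKM. Annotation, strand and the handling of reads matching several places are not given in the sources used here. A further column, the authors' p-value for the group comparison, was not used. Of rows sharing a symbol (37 symbols), the one with the larger mean entered the tests. log2(RPKM + 1) was compared between 3 and 3 libraries in a two-sided test by limma 3.58.1 (R 4.3.3; lmFit, eBayes with trend), on genes that averaged 0.1 RPKM or more, with Benjamini-Hochberg adjustment over all 13266 genes, and the fit was tested on simulated data. Depth, ratios and promoters were computed in Python 3.11.15 (numpy 2.4.6, pandas 2.3.3, scipy 1.17.1), with GENCODE M21 transcripts and RefSeq promoters (GRCm38.p6). Depth was taken as the library size that brought low RPKM of genes with 1 transcript closest to whole reads.

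The members and gene lists were chosen with earlier results of these data known. The text names all members, at most 4 genes of each list by lowest p, and the 3 genes nearest in pattern to Alpl and to Dmp1; marker genes named beside the summed levels, Fam20c, Ank and Bglap3 fall outside that rule and were named after their values were seen. Adgre1 was matched by its older symbol Emr1. The labels number the replicates of both groups. Deviations from the group means of same-numbered libraries correlated across genes with r = 0.149, 0.117 and 0.462, each above 0.1, so a further fit took the numbers as pairs, on these values alone (Control replicate 1 with siTet1/Tet2 replicate 2 reached 0.332). Alternatives were other pseudocounts, filters and scalings, eBayes without trend, the replicate block, summed rows and each library left out.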

Additional observations from a re-analysis of the deposited data

How the results depend on the processing

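Alpl, Bglap2, Mgp, Dmp1 and Phospho1 stayed in the same direction with a limma adjusted p below 0.05 in every alternative run for them (16 for Dmp1 and 17 for each of the others). For Dmp1 the limit given above holds here too, since it was tested only because of its high group. Fits with a library left out kept the genes that passed the minimum over all libraries. Log2 fold changes ranged from -3.23 to -1.59 for Alpl, -2.50 to -0.80 for Bglap2, -1.94 to -1.21 for Mgp, 0.42 to 3.98 for Dmp1 and 0.62 to 0.83 for Phospho1. Enpp1 lost its call in 5 of 17 alternatives (adjusted p from 0.00334 to 0.109 over all of them), and Spp1 gained one in 6 of 17. The cause was not tested. The mean of at least 1 RPKM removed Dmp1, Ibsp and Bglap, which have no value there. With the replicate block, which pairs the libraries by number, Spp1 was called (adjusted p = 0.0394) and no other call of the 9 genes changed, while Bglap3 was also called lower (adjusted p = 0.042). The number of genes called lower relative to the stromal markers was 1, and 1 to 2 with one library left out (2 without Control replicate 3, siTet1/Tet2 replicate 1 or siTet1/Tet2 replicate 3). The number called higher there was 5, and 6 with a pseudocount of 0.1, which added Bglap (1.19, adjusted p = 0.00578). Adding Bglap and Bglap2 as 1 row, and the block in the stromal-centred fit, were chosen after seeing the data. Over all genes, the median log2 fold change went from -0.09 to 0.06 after quantile normalization, where 2627 genes were lower and 3607 higher instead of 3952 and 1953, and median ratio scaling gave 3108 and 2697; no called gene of these lists changed sign under either or when libraries were rescaled to equal sums, and the calls in each list moved by at most 2 genes in a direction. Depth limits Phex, Bglap and the Control values of Dmp1.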
